A study of Mus musculus with 6 samples.

Results

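The Rab GTPases are small GTP-binding proteins that give each compartment of the vesicle traffic its identity. The family was taken here as the 59 genes, of 26264 in the expression table, whose symbol is Rab followed by a number and at most a letter and a digit (Rab5c, Rab11a, Rab7). A Rab switches between an inactive, GDP-bound form held in the cytosol by a GDP dissociation inhibitor (GDI) and an active, GTP-bound form anchored in a membrane by its prenyl groups. Exchange factors (GEFs) switch it on, GTPase-activating proteins (GAPs) switch it off, and while on it recruits effectors that move, tether or fuse vesicles. Liver sinusoidal endothelial cells are known for very active endocytosis of waste proteins and lipoproteins, and endothelial cells in general store von Willebrand factor in granules, the Weibel-Palade bodies, whose release depends on several Rabs.

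RNA came from endothelial cells of the liver of C57BL6 mice that had eaten either a control diet or a diet holding 1200 ppm PLX5622 for 1 month, with 3 libraries per diet. PLX5622 inhibits the receptor CSF1R, on which most tissue macrophages depend, and the study asked whether it changes cholesterol metabolism in endothelial cells outside the nervous system. From each mouse 1 liver lobe was dissociated, CD31+ cells were sorted by FACS, and polyadenylated RNA was made into libraries that do not keep the strand. All mice share strain and time on diet. Sorting on CD31 enriches for endothelial cells without separating those of sinusoids from those of larger vessels. Levels are given in TPM, the authors' unit, a count of transcripts scaled for gene length and for the total of the library. Libraries are named control 1 to 3 and PLX5622 1 to 3, and values are given in that order.

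In the 15097 genes that the authors compared between diets, the libraries held between 14518134 and 32732619 reads, as worked out from the deposited values. Pecam1, which encodes CD31, was between 1510 and 1981 TPM in every library. The libraries of a diet differed among themselves in endothelial markers: Vwf, which encodes von Willebrand factor, was 2984, 1625 and 1655 TPM on control and 2827, 1839 and 2333 TPM on PLX5622, and Stab2, a scavenger receptor of sinusoidal endothelium, was 343, 1007 and 993 TPM against 279, 474 and 684 TPM. Control 1 and PLX5622 1 were therefore the libraries highest in Vwf and lowest in Stab2. RNA of other cells was present: summed over 13 Kupffer cell markers the level was 174, 184 and 282 TPM on control and 92.6, 177 and 173 TPM on PLX5622, and over 14 hepatocyte markers it was 5057, 2423 and 2145 TPM against 1422, 1632 and 2834 TPM. Slc40a1 was the highest of the Kupffer markers in every library, at 31.9, 81.4 and 102 TPM against 42.5, 77.6 and 96.5 TPM. It therefore weighs most in their sum. Of the 13 Kupffer markers, 4 did not overlap between diets and were lower on PLX5622 (background 8.68%). Of the Kupffer markers 12 of 13, and of the hepatocyte markers 13 of 14, had a log2 fold change below 0 (46.2% of all genes were above 0). None of either list was at 0 in any library.

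Of the 59 Rab genes, 49 were above 0 in every library, and 47 averaged 1 TPM or more across the 6 libraries and were tested. Another 9 were above 0 in at least 1 library but under that limit (Rab42, Rab17, Rab26, Rab33a, Rab7b, Rab39, Rab39b, Rab44 and Rab15). Rab3c, Rab38 and Rab9b were listed at 0 in every library, which allows up to 3 reads in each of them (counting error only). The family as a whole summed to 3778, 3622 and 3796 TPM on control and 3567, 3728 and 3648 TPM on PLX5622, ranges that overlap. Expression was concentrated: the 5 highest members held 40.0% of that sum and the 10 highest 59.4%. There were 10 members with a mean of at least 100 TPM, 23 with at least 50 TPM and 37 with at least 10 TPM. Rab5c was the highest and Rab7 the second in 6 of 6 libraries, and 9 of the 10 highest were the same in every library.

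**Figure D1:**
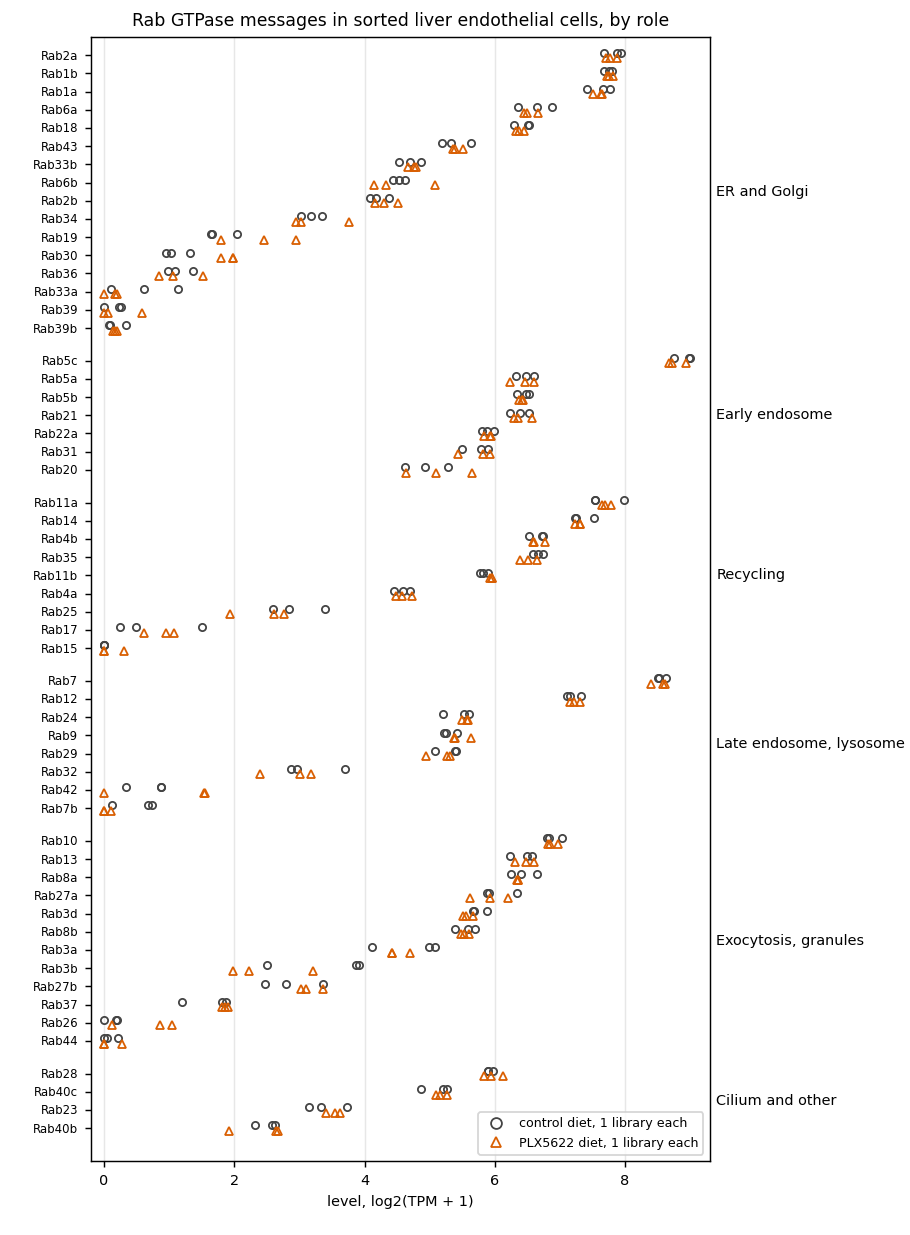
Level of the 56 Rab members above 0 in at least 1 library, as log2(TPM + 1) on the horizontal axis, grouped by role and ordered by level, with circles for the 3 control libraries and triangles for the 3 PLX5622 libraries. Rab5c reaches 507 TPM at the right, the 6 libraries lie within 1.5-fold for 32 of the 37 members of at least 10 TPM (not Rab20, Rab3a, Rab6b, Rab27a and Rab23), and the 10 tested members under 10 TPM all spread further than that.

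The members' start regions differed in sequence with their level. The windows run from 250 bases before to 50 bases after the annotated gene start and were found for 48 of the 59 members in RefSeq (build GRCm38.p6, another build than the mm39 of the authors, so they were matched by symbol). Of these, 4 are shown to compare the highest member, Rab5c, with the scarce Rab17, and, within the Rab3 group of granule Rabs, the steadily expressed Rab3d with the variable Rab3b. Each is printed 5′ to 3′ along the gene's strand, and capitals mark every CG dinucleotide, the CpG.
Rab5c: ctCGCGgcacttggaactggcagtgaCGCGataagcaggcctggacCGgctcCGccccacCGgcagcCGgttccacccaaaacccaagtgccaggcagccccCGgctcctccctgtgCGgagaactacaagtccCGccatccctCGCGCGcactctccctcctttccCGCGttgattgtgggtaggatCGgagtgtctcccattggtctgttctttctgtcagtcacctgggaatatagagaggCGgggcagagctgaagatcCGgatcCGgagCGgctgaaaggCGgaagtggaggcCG
Rab17: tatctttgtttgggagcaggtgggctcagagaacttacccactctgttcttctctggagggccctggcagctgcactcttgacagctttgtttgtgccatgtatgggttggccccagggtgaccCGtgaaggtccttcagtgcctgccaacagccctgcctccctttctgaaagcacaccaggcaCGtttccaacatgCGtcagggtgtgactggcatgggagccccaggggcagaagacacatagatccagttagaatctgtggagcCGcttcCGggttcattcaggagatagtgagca
Rab3d: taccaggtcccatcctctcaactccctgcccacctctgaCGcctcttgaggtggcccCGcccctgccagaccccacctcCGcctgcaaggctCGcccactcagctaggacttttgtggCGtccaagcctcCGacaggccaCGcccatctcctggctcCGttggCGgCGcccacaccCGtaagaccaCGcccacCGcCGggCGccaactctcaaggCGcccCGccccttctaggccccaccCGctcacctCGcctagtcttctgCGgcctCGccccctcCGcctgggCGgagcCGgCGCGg
Rab3b: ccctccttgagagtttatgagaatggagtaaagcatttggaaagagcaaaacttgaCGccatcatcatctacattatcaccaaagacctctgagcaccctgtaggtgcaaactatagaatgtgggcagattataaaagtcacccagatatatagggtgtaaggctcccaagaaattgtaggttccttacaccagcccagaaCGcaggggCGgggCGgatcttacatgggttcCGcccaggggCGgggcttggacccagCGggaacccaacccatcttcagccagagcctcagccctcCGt
The Rab5c window (chr11:100738166-100738465, minus strand) has 23 CpG and an observed over expected CpG ratio of 0.765. Rab17 (chr1:90967618-90967917, minus strand) has 5 CpG and a ratio of 0.216. In the Rab3 group, Rab3d (chr9:21918134-21918433, minus strand) has 26 CpG at 0.774, and Rab3b (chr4:108878820-108879119, plus strand) has 8 at 0.400.

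A CpG ratio of at least 0.6, the usual mark of a CpG island promoter, was found in 20 of 21 matched members with a mean of at least 50 TPM, in 12 of 13 with 10 to 50 TPM and in 4 of 14 with under 10 TPM. The median ratios of these classes were 0.765, 0.787 and 0.462. Genes at large followed the same course, with medians of 0.795, 0.787 and 0.315 and shares at or above 0.6 of 76.3%, 76.3% and 28.0%. Across the 48 members the rank correlation of the ratio with the mean TPM was 0.45, and across 19526 genes it was 0.58, a description over genes that share libraries. Windows of the members held the letters CACGTG (an E-box, its own reverse complement) in 5 of 48 (10.4%), against 10.1% of the windows of all tested genes and 7.24% of 27025 windows of all genes, which include genes under the limit for testing. The letters CCGGAAG, found on either strand, were in 5 of 48 (10.4%), against 17.8% of all tested genes and 9.12% of all genes. By level, CCGGAAG was in 14.3% of members and 19.1% of genes with at least 50 TPM, and in 7.69% and 20.5% at 10 to 50 TPM. CACGTG was in 9.52% of members and 10.8% of genes with at least 50 TPM, and in 23.1% and 10.6% at 10 to 50 TPM, each from at most 5 members. Windows of Rab4a, Rab37, Rab36, Rab30, Rab44, Rab26, Rab7b, Rab27b, Rab18, Rab2a and Rab38 were not used here.

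No Rab member passed the test between diets. With limma on log2(TPM + 1) and Benjamini-Hochberg adjustment over 13739 genes, 0 of 47 members had an adjusted p under 0.05 (background 0% of all genes), and the lowest adjusted p of a member was 1.00. Before adjustment, 1 of 47 members, Rab30, had a p under 0.05 in limma (background 3.34%), and with voom on the recovered reads it was again 1 of the members tested (background 2.99%). The 3 libraries of a diet lay all above or all below the other 3 in 3 of 47 members (background 8.68%): Rab30 and Rab11b were higher on PLX5622 and Rab3d was lower. Neither share was above its background. In the authors' deposited table, which holds 49 of the members, 0 had an adjusted p under 0.05 (background 0.0729%) and 3 had an unadjusted p under 0.05, namely Rab30, Rab3b and Rab7b (background 3.18%).

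The differences of the members were centred on 0. Their median log2 fold change was -0.01, against -0.02 over all genes tested, with 23 members above 0 and 24 below 0 (46.2% of all genes were above 0). The 95% interval of the limma fit lay within 1.5-fold in either direction for 34 of 47 members (background 54%). Among members with a mean of at least 10 TPM it was 34 of 37 (background 75.1%), a class chosen after the values were seen. The exceptions there were Rab20, Rab3a and Rab23. The highest of the 6 libraries was under 1.5 times the lowest in 32 of those 37 members, which was so for 66.2% of all genes of that level. For the 10 tested members under 10 TPM the interval reached past 1.5-fold in every case. The median coefficient of variation was 12.3% on control and 8.85% on PLX5622, against 15.7% and 13.4% over all genes. That comparison was not matched for level: 37 of the 47 members averaged at least 10 TPM, against 9427 of the 13739 genes.

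**Figure D2:**
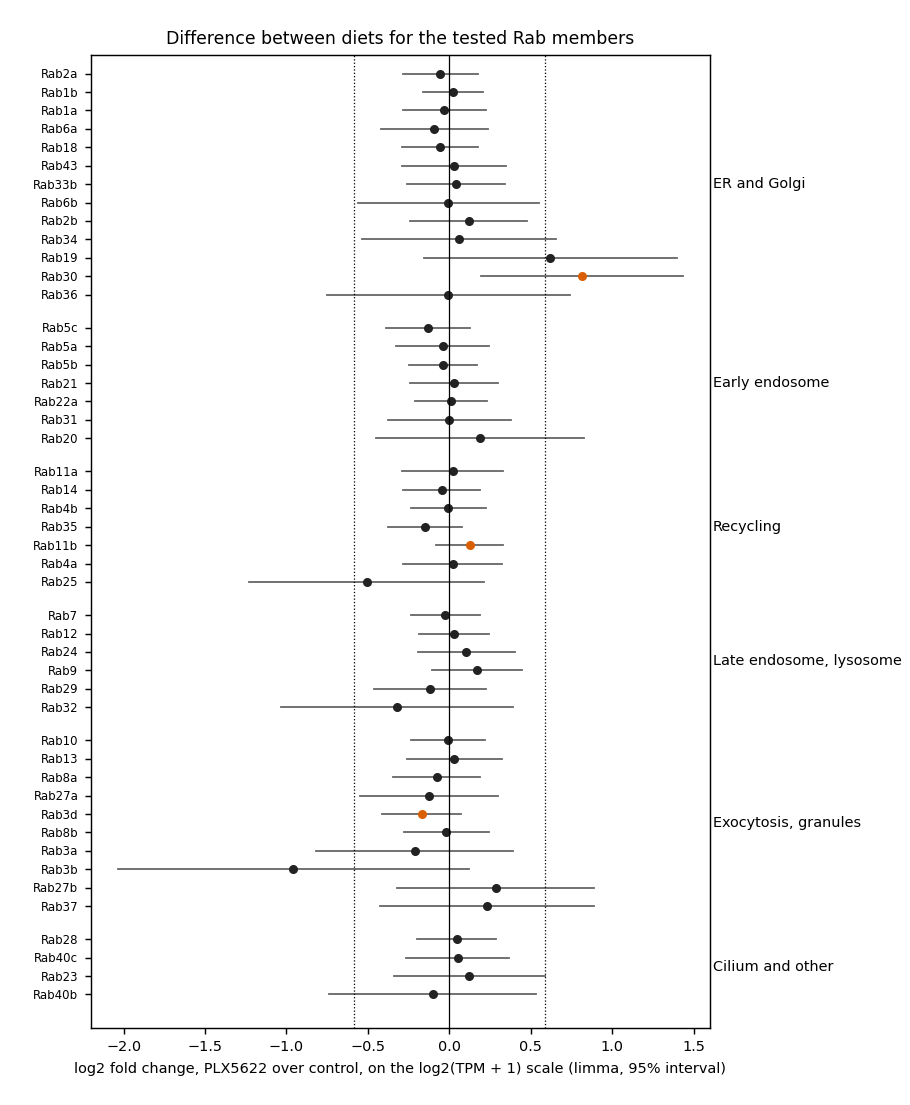
Log2 fold change of PLX5622 over control for the 47 tested Rab members, grouped by role, with the 95% interval of the limma fit as a bar and dotted lines at 1.5-fold either way. Orange points mark Rab30, Rab11b and Rab3d, whose libraries do not overlap between diets; the interval of Rab30 (0.20 to 1.43) is the only one that leaves out 0.

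Rabs of the early secretory pathway, between the endoplasmic reticulum and the Golgi, were led by the pair Rab1 and Rab2. Rab2a, which acts in transport between Golgi and endoplasmic reticulum, was 235, 203 and 245 TPM on control and 207, 233 and 216 TPM on PLX5622. Rab1b, needed for transport from the endoplasmic reticulum to the Golgi, was 203, 222 and 214 TPM against 211, 214 and 223 TPM. Its near copy Rab1a was 217, 170 and 202 TPM against 198, 196 and 180 TPM. For each of these genes the diets overlapped, and the log2 fold changes were -0.05 (95% interval -0.29 to 0.18) for Rab2a, 0.02 (-0.16 to 0.21) for Rab1b and -0.03 (-0.29 to 0.23) for Rab1a. Rab1b was the most even of the members, with a highest library 1.10 times the lowest.

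Rab6a, a Rab of the Golgi, was 116, 80.9 and 98.9 TPM on control and 100, 86.2 and 89.0 TPM on PLX5622. Rab18, found on the endoplasmic reticulum and on lipid droplets, was 91.4, 77.1 and 90.3 TPM against 86.6, 79.3 and 82.1 TPM. For both, the PLX5622 libraries fell inside the range of the control libraries, and the log2 fold changes were -0.09 (-0.42 to 0.24) and -0.06 (-0.29 to 0.17). Of the 17 genes listed for this role 16 were in the table and 13 were tested. Of these, 7 were above 0 and 6 below (46.2% of all genes were above 0). In 1 of the 13 the unadjusted limma p was under 0.05 (background 3.34%).

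That gene was Rab30, a scarce Rab that in human cells is placed at the Golgi. It was 1.5, 1.04 and 0.924 TPM on control and 2.93, 2.94 and 2.46 TPM on PLX5622, or 1.16 ± 0.302 against 2.78 ± 0.273 TPM (SD, n = 3). All 3 PLX5622 libraries were above all 3 controls, on 28, 23 and 9 reads against 44, 34 and 34 reads. The log2 fold change on the log2(TPM + 1) scale was 0.82 (0.20 to 1.43; limma, unadjusted p = 0.0164, adjusted p = 1.00), and the authors' deposited table gives 1.26 with an unadjusted p of 0.0213. The unadjusted limma p was 0.0520 without PLX5622 1 and 0.0505 without PLX5622 2. The size depends on the constant added to so low a level: it was 1.22 with a pseudocount of 0.1 TPM, 0.34 with 5 TPM and 1.24 with voom on the recovered reads. Rab19, another scarce Golgi Rab, was 2.14, 2.13 and 3.12 TPM on control and 2.48, 6.67 and 4.50 TPM on PLX5622. Its libraries overlapped, with a log2 fold change of 0.62 (-0.16 to 1.40).

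Rabs of the early endosome receive what the cell takes up. Rab5c, which with its close relatives drives fusion of early endosomes, was 428, 504 and 507 TPM on control and 407, 489 and 419 TPM on PLX5622, or 480 ± 44.7 against 438 ± 44.6 TPM (SD, n = 3). Rab5a was 96.0, 79.5 and 88.5 TPM against 74.3, 95.6 and 87.4 TPM, and Rab5b was 80.0, 91.4 and 87.9 TPM against 82.0, 85.3 and 84.6 TPM. None of the Rab5 genes separated the diets, with log2 fold changes of -0.13 (-0.39 to 0.13), -0.04 (-0.33 to 0.25) and -0.04 (-0.25 to 0.17). Rab5c therefore exceeded the sum of its relatives in every library and made up 70.9% to 74.7% of the Rab5 group.

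Rab21, which carries integrins through endosomes, was 90.6, 74.2 and 82.8 TPM on control and 94.2, 81.1 and 77.4 TPM on PLX5622, and the diets overlapped. Rab20, an endosomal and phagosomal Rab, was 37.7, 29.4 and 23.6 TPM against 33.3, 49.5 and 23.8 TPM. It was high in PLX5622 2 and low in the third library of both diets, and its interval (-0.45 to 0.82 around 0.19) was the widest of the members with at least 10 TPM. All 7 genes listed for the early endosome were tested, 4 above 0 and 3 below (46.2% of all genes were above 0). Of the 7, 0 had an unadjusted limma p under 0.05 (background 3.34%).

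Rabs of recycling return membrane and receptors to the cell surface. Rab11a, the main Rab of the recycling endosome, was 252, 185 and 184 TPM on control and 207, 198 and 218 TPM on PLX5622. Rab14, which acts between Golgi and endosomes, was 182, 151 and 149 TPM against 158, 157 and 150 TPM. Rab4b, of the fast recycling route, was 91.4, 105 and 105 TPM against 95.5, 108 and 96.6 TPM. Control 1 was the highest library for Rab11a and Rab14 and the lowest for Rab4b, and the log2 fold changes were 0.02 (-0.29 to 0.33), -0.05 (-0.28 to 0.19) and -0.01 (-0.24 to 0.23).

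Rab11b, a near copy of Rab11a, was 53.4, 55.2 and 58.3 TPM on control and 61.3, 59.7 and 61.2 TPM on PLX5622, or 55.6 ± 2.45 against 60.7 ± 0.922 TPM (SD, n = 3). Every PLX5622 library was above every control, the log2 fold change was 0.13 (-0.08 to 0.33), and the limma test was not passed (unadjusted p = 0.194, adjusted p = 1.00). Rab25, the Rab11 relative of epithelia, was 5.06, 6.19 and 9.52 TPM against 5.82, 2.83 and 5.13 TPM, with overlap and a log2 fold change of -0.51 (-1.23 to 0.22). Rab17, also known from polarised epithelia and from hepatocytes, gave 35, 4 and 4 reads against 8, 13 and 13 reads, highest in control 1, the library highest in hepatocyte markers. Summed over 6 markers of cholangiocytes, the epithelium of the bile ducts, the level was 29.0, 85.8 and 13.6 TPM against 2.67, 54.7 and 28.2 TPM. Spp1, at 69.9 TPM in control 2, was the highest of the 6 in every library. Rab25 was highest in control 3 and lowest in PLX5622 2, where that sum was 13.6 and 54.7 TPM. The part of other cells in Rab17 and Rab25 was not tested. Rab15 was above 0 in PLX5622 2 alone, at 0.238 TPM. Of 9 genes listed for recycling 7 were tested, 3 above 0 and 4 below (46.2% of all genes were above 0). Of the 7, 0 had an unadjusted limma p under 0.05 (background 3.34%).

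Rabs of the late endosome and lysosome were dominated by Rab7, which directs late endosomes to fuse with lysosomes. It was 363, 368 and 393 TPM on control and 336, 383 and 389 TPM on PLX5622, with a log2 fold change of -0.02 (-0.24 to 0.19). Rab12, which guides receptors from recycling endosomes to lysosomes, was 142, 136 and 158 TPM against 147, 157 and 142 TPM, with a log2 fold change of 0.03 (-0.18 to 0.24). Both overlapped between diets. Rab32, which acts at lysosome-related organelles and mitochondria, was 6.32, 6.78 and 12.0 TPM against 4.25, 7.05 and 8.01 TPM, highest in control 3 and lowest in PLX5622 1, the libraries with the highest and the lowest sum of Kupffer cell markers. Its log2 fold change was -0.32 (-1.03 to 0.39), and the part of Kupffer cell RNA in it was not tested. Of 10 genes listed for this role 6 were tested, 3 above 0 and 3 below (46.2% of all genes were above 0). Of the 6, 0 had an unadjusted limma p under 0.05 (background 3.34%).

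Rab7b, a relative of Rab7 described in human cells between lysosomes and Golgi, was under the limit for testing. It gave 29, 31 and 2 reads on control and 0, 2 and 0 reads on PLX5622, or 0.664, 0.603 and 0.0880 TPM against 0, 0.0740 and 0 TPM. In TPM the PLX5622 libraries were all below the controls, but 60 of the 62 control reads came from control 1 and 2. Control 3 and PLX5622 2 gave 2 reads each, so their order in TPM rests on library depth alone. The ratio of pooled reads per recovered depth was 0.0408, with a counting interval of 0.00484 to 0.154 that leaves out the spread between mice. In the fit without a filter on low values Rab7b had an unadjusted limma p under 0.05 (background 3.66%) and did not overlap between diets (background 7.92%). The authors' deposited table gives a log2 fold change of -4.32 with an unadjusted p of 0.00613 and an adjusted p of 0.988, the lowest of any Rab. Markers of macrophages and other myeloid cells were also mostly lower on PLX5622, and they differed in their order across libraries. Csf1r, the receptor that PLX5622 inhibits, was 7.13, 5.99 and 8.68 TPM against 1.26, 3.13 and 4.21 TPM, and Spi1, which encodes the myeloid transcription factor PU.1, was 2.51, 2.89 and 5.43 TPM against 0.320, 0.415 and 0.0870 TPM. Control 3, with 2 reads of Rab7b, was the highest library for Csf1r, Spi1 and the sum of Kupffer cell markers. Ptprc, listed with the other myeloid markers, was 3.02, 1.65 and 0.978 TPM against 0.249, 0.499 and 0.812 TPM. It was highest in control 1 and 2, as Rab7b was. Csf3r, of the same list, was higher in every PLX5622 library, at 1.43, 0.909 and 1.61 TPM against 3.43, 2.14 and 3.27 TPM. Summed over 16 myeloid markers other than those of Kupffer cells, the control libraries ranged from 187 to 245 TPM and the PLX5622 libraries from 149 to 176 TPM. Of the 9 tested markers, 7 were below 0 (46.2% of all genes were above 0). Summed over 11 lymphocyte markers, the level was 16.7, 13.3 and 0.853 TPM on control and 6.06, 8.97 and 5.66 TPM on PLX5622. That sum, too, was highest in control 1 and 2, but control 3 was below every PLX5622 library. The part of these cells in the Rab7b values was not tested, and in sorted bulk RNA fewer cells of a type and less RNA per cell cannot be told apart.

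Rabs of exocytosis and secretory granules serve the last steps to the surface. Rab10, of polarised and regulated exocytosis, was 129, 111 and 112 TPM on control and 111, 125 and 114 TPM on PLX5622. Rab13, known from cell junctions, was 73.8, 89.4 and 94.0 TPM against 96.4, 88.4 and 77.9 TPM. Rab8a, of transport to the plasma membrane and the cilium, was 98.8, 74.8 and 83.9 TPM against 80.3, 80.9 and 81.2 TPM. These overlapped between diets, and the log2 fold changes were -0.01 (-0.23 to 0.22), 0.03 (-0.26 to 0.33) and -0.08 (-0.34 to 0.19). Of 13 genes listed for this role 10 were tested, 3 above 0 and 7 below with a median of -0.05 (46.2% of all genes were above 0). Of the 10, 0 had an unadjusted limma p under 0.05 (background 3.34%).

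Rab27a, which docks Weibel-Palade bodies at the cell surface, was 79.6, 57.8 and 59.0 TPM on control and 72.4, 48.1 and 59.6 TPM on PLX5622. It was highest in control 1 and PLX5622 1, which were also the highest in Vwf, followed by PLX5622 3, and did not separate the diets (-0.13, -0.55 to 0.30). Rab27b, its relative of granules in blood cells and glands, was 9.23, 4.57 and 5.97 TPM against 7.14, 7.61 and 9.25 TPM, with overlap and a log2 fold change of 0.28 (-0.32 to 0.89). Summed over 8 markers of platelets, which carry Rab27b, the level was 29.6, 52.2 and 34.8 TPM against 36.8, 58.2 and 30.1 TPM. That sum was lowest in control 1 and PLX5622 3, the libraries in which Rab27b was highest. Its markers did not all share this order: Gp1ba was highest in control 1 (14.1 TPM) and lowest in PLX5622 3 (7.87 TPM). The part of platelet RNA in Rab27b was not tested.

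Rab3d, a Rab of Weibel-Palade bodies and other granules, was 57.9, 50.5 and 49.7 TPM on control and 44.7, 45.9 and 49.5 TPM on PLX5622, or 52.7 ± 4.55 against 46.7 ± 2.51 TPM (SD, n = 3). The PLX5622 libraries were all below the controls, though PLX5622 3 and control 3 differed by little, and they overlapped under quantile normalization. The log2 fold change was -0.17 (-0.41 to 0.07; limma, unadjusted p = 0.147, adjusted p = 1.00). Rab3b, in human endothelial cells also a Rab of Weibel-Palade bodies and here the member whose window holds 8 CpG, was 4.69, 13.6 and 14.1 TPM against 3.68, 2.96 and 8.23 TPM. Control 1 lay within the range of the PLX5622 libraries, while control 2 and 3 were above all of them. The log2 fold change was -0.96 (-2.03 to 0.12; limma, unadjusted p = 0.0742, adjusted p = 1.00), and the authors' deposited table gives -1.11 with an unadjusted p of 0.0132. Without control 1, the control that lay among the PLX5622 libraries, the log2 fold change was -1.42 (limma, unadjusted p = 0.00605, adjusted p = 0.750). In that fit 6.22% of all genes had an unadjusted p under 0.05. Leaving out each library in turn gave -1.42 to -0.71 for Rab3b.

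Rab3a, best known from synaptic vesicles, was 16.2, 30.8 and 32.9 TPM on control and 20.5, 20.4 and 25.0 TPM on PLX5622, with a log2 fold change of -0.21 (-0.82 to 0.39). As with Rab3b, the 2 highest libraries were control 2 and 3, and PLX5622 3 was the next. Stab2 had the same 3 libraries on top, with control 1 and PLX5622 1 lowest, and its own log2 fold change was -0.64 (-1.73 to 0.45). Of the other endothelial markers, Kdr, Stab1 and Ehd3 had these same libraries on top, and the rest did not. Lyve1 was highest in PLX5622 2 (876 TPM), the library lowest in Rab3b. Clec4g and Oit3 were higher in PLX5622 2 (3035 and 986 TPM) than in PLX5622 3 (2945 and 841 TPM). Whether the mix of sinusoidal and other endothelial cells has a part in Rab3a, Rab3b and Rab27a was not tested. Of the 7 Rabs listed for Weibel-Palade bodies (Rab3a, Rab3b, Rab3d, Rab15, Rab27a, Rab33a and Rab37) 5 were tested, 1 above 0 and 4 below (46.2% of all genes were above 0) with a median of -0.17, and 1 of them, Rab3d, did not overlap between diets (background 8.68%). Their summed level was 160, 155 and 160 TPM on control and 144, 120 and 145 TPM on PLX5622, a sum to which no test was applied because the list was drawn up with earlier results of these data known.

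**Figure D3:**
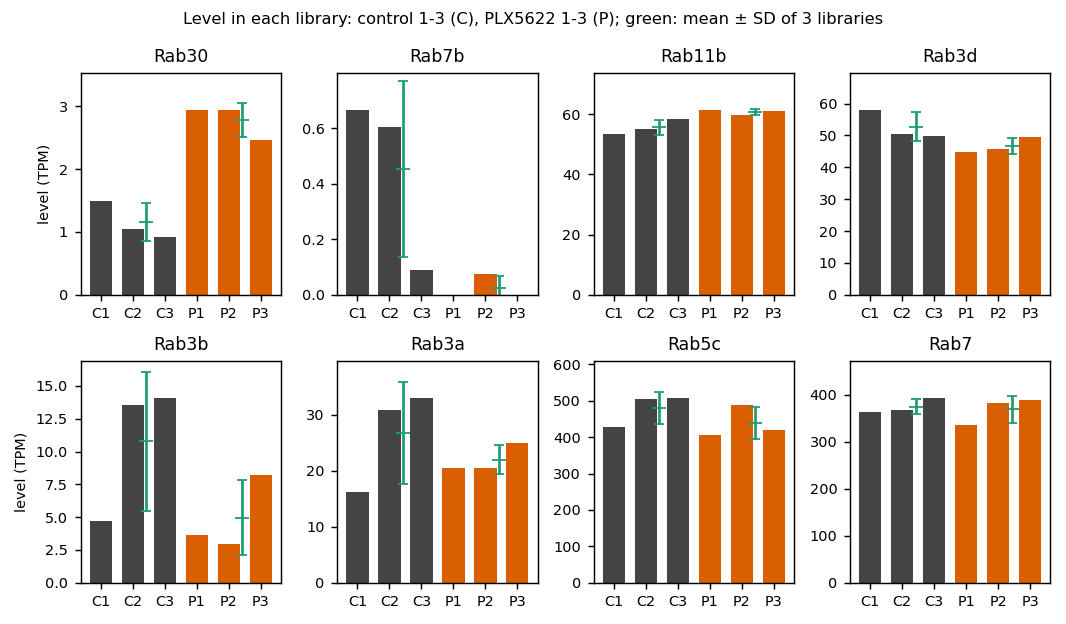
TPM of 8 Rab members in each of the 6 libraries, grey bars for control 1 to 3 and orange bars for PLX5622 1 to 3, with the mean and SD of the 3 libraries in green and an axis from 0 in each panel. Rab30 is higher in every PLX5622 library (2.46 to 2.94 against 0.924 to 1.5 TPM), Rab7b rests on control 1 and 2, and Rab3b and Rab3a are high in control 2 and 3.

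**Figure D4:**
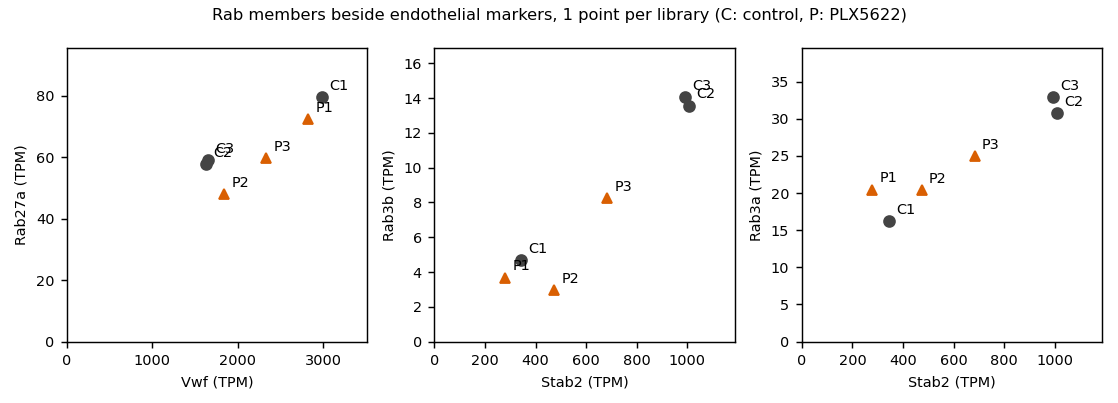
Each point is 1 library, with Rab27a against Vwf, Rab3b against Stab2 and Rab3a against Stab2, all in TPM on linear axes from 0. Control 1 and PLX5622 1 are at the top for Rab27a and Vwf (79.6 and 72.4 TPM of Rab27a), and control 2 and 3 are at the top for Stab2, Rab3b and Rab3a.

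The remaining Rabs, of the cilium and of protein turnover, were the Hedgehog pathway Rab Rab23, the photoreceptor and cilium Rab28, and Rab40b and Rab40c, which form part of ubiquitin ligases. All 4 were tested, 3 above 0 and 1 below (46.2% of all genes were above 0), with log2 fold changes between -0.10 and 0.12. Of the 4, 0 had an unadjusted limma p under 0.05 (background 3.34%). Members under the limit for testing rested on few reads. Rab33a gave 6, 1 and 7 reads on control and 0, 1 and 1 reads on PLX5622, with overlap. Rab42 gave 6, 7 and 1 reads against 11, 0 and 10 reads. In smallest whole numbers, Rab39, Rab39b and Rab44 reached up to 10 reads in a library, and Rab26 reached 11. For those 6 genes the reads are the smallest whole numbers in the ratio of the TPM values and so are lower bounds.

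How near copies of a Rab share their level was compared in 14 of 16 groups of close relatives, as the share of the leading gene in the group's summed TPM. That share does not depend on the scaling of a library. Rab5c held 73.3% ± 2.07 of its group on control and 72% ± 1.07 on PLX5622 (SD, n = 3). Rab11a held 76.4% ± 4.21 against 76.1% ± 0.623, and Rab27a 91.0% ± 1.54 against 88.0% ± 2.64. Rab3d held 59.4% ± 12.3 against 63.7% ± 3.38 and varied most among the groups led by an abundant gene, from 73.5% in control 1 to 51.4% in control 3. Rab1b and Rab1a were nearly even, Rab1b holding 52.1% ± 4.24 against 53.0% ± 2.03. In 3 groups, Rab2, Rab7 and Rab33, the leading gene held over 90% in every library. The groups overlapped between diets in all but 1 comparison, the share of Rab7 over Rab7b, which ranged from 99.8% to 100% and whose difference is that of the few Rab7b reads. In control 3 and PLX5622 2, which gave 2 Rab7b reads each, that share was 99.978% and 99.981%. By exact two-sided permutation tests over the libraries the smallest p was 0.1, the smallest that 3 against 3 allows, and every p adjusted over the 14 groups was 1.

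**Figure D5:**
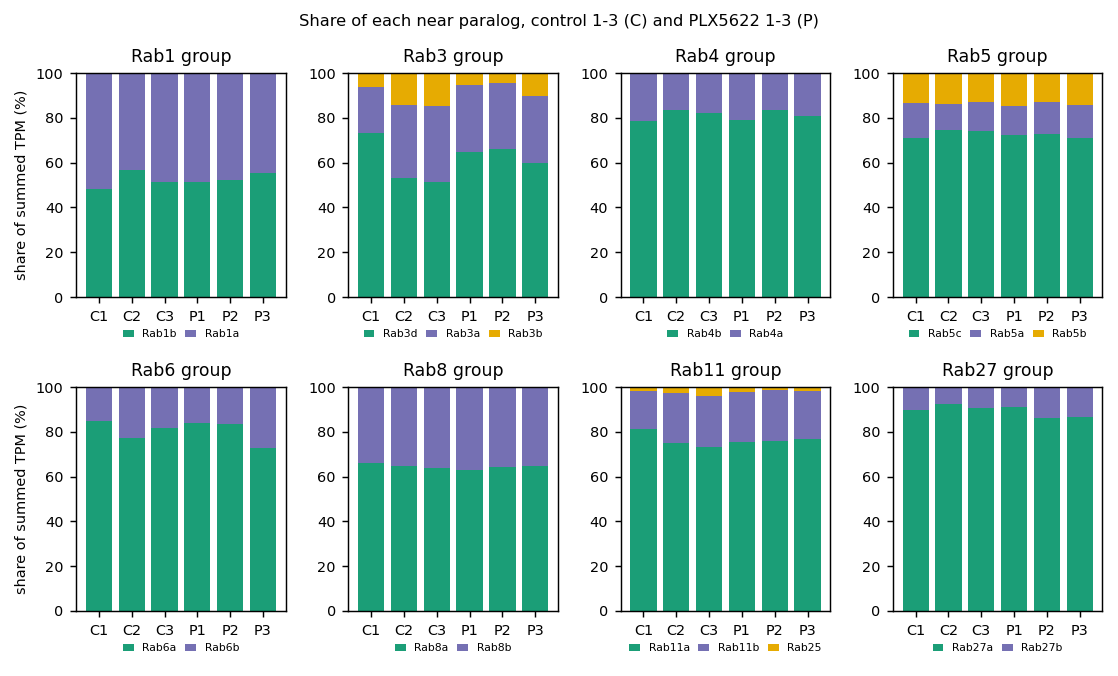
Share of each gene in the summed TPM of its group of close relatives, in percent, for 8 groups and the 6 libraries (C, control; P, PLX5622). Rab5c holds 70.9% to 74.7% throughout, Rab1a and Rab1b are nearly even, and the Rab3 group varies most, with Rab3d between 51.4% and 73.5%.

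Genes that switch, carry and serve the Rabs were counted from lists. Of 36 GEFs tested, 10 were above 0 and 26 below (46.2% of all genes were above 0) with a median log2 fold change of -0.05. Of the 36, 0 had an unadjusted limma p under 0.05 (background 3.34%). Dennd4a (0.18, -0.17 to 0.53) and Dennd5b (0.13, -0.11 to 0.38), which were higher on PLX5622, and Sbf1 (-0.14, -0.35 to 0.07), which was lower, did not overlap between diets, 3 of 36 beside a background of 8.68%. The GEFs with the smallest p were Dennd1c at 1.71, 2.63 and 3.45 TPM on control against 0.966, 2.30 and 0.607 TPM on PLX5622, and Dennd3 at 72.5, 91.6 and 81.4 TPM against 71.3, 70.7 and 74.6 TPM, both with overlap. Of 34 GAPs, 18 were above 0 and 16 below (46.2% of all genes were above 0), and 0 had an unadjusted limma p under 0.05 (background 3.34%). Of the 34, 1 did not overlap (background 8.68%), Tbc1d8, at 44.6, 36.6 and 45.5 TPM against 55.2, 51.0 and 46.2 TPM (log2 fold change 0.26, -0.03 to 0.56). Sgsm1, the GAP with the next smallest p, was 3.05, 6.71 and 6.35 TPM against 7.43, 6.67 and 9.40 TPM, with overlap.

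Genes that carry and prenylate the Rabs did not pass the limma test either. Gdi2, the GDI of most tissues, was 319, 333 and 361 TPM on control and 311, 311 and 345 TPM on PLX5622, with overlap and a log2 fold change of -0.07 (-0.28 to 0.14). Rabac1, a membrane receptor for prenylated Rabs, was 399, 414 and 423 TPM against 452, 430 and 455 TPM, higher in every PLX5622 library by 0.11 (-0.07 to 0.29), and did not pass the limma test (adjusted p = 1.00). The escort proteins Chm and Chml and both subunits of the transferase that prenylates Rabs, Rabggta and Rabggtb, overlapped between diets, with log2 fold changes between -0.25 and 0.08.

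Of 42 effectors 35 were tested, 15 above 0 and 20 below with a median of -0.05 (46.2% of all genes were above 0). Of the 35, 1 had an unadjusted limma p under 0.05 (background 3.34%). Bicd2, an adaptor by which Rab6 vesicles bind dynein, was 72.5, 67.9 and 76.2 TPM on control and 58.2, 61.8 and 62.3 TPM on PLX5622, so that every PLX5622 library was below every control. Its log2 fold change was -0.24 (-0.46 to -0.03; limma, unadjusted p = 0.0294, adjusted p = 1.00). With it, 5 of the 35 did not overlap between diets (background 8.68%), the other 4 being Unc13d (the Rab27 effector Munc13-4; -0.28, -0.61 to 0.04), the early endosome tether Eea1 (-0.20, -0.45 to 0.05) and Rufy1 (-0.15, -0.39 to 0.09), which were lower, and Rabep2 (0.13, -0.09 to 0.34), which was higher. None of these lists held a gene with an adjusted limma p under 0.05.

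Some members share exonic bases with another gene of the table, and libraries without strand cannot tell reads of opposite strands apart. In the GENCODE annotation this was so for 12 members, 10 of them on the opposite strand. The longest overlaps were those of Rab24 with Prelid1 (1258 bases) and of Rab6a with Mrpl48 (708 bases). Rab3b overlaps the antisense gene 8030443G20Rik by 317 bases, a gene with a mean of 0.200 TPM, and Rab20 overlaps E230013L22Rik by 356 bases, with a mean of 49.2 TPM. Rab26 shares 267 bases on the same strand with Traf7, at 157 TPM, so that its few reads are uncertain.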

How the data were processed

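RNA sequencing of 6 libraries was analysed from 2 deposited tables. The authors' expression table gives TPM for 26264 genes. The authors' comparison table, made with DESeq2 per the submitters' processing notes, covers 15097 genes. It holds for each, as deposited, the mean normalized count (a signal), the log2 fold change with standard error, a Wald score, and the p-value before and after adjustment. Per the submitters' processing notes, the authors used mm39, STAR (2.7.10a), Subread (2.0.1) with featureCounts, and DESeq2 (1.32.0) under R (4.1.0). The sources used here give neither the annotation nor the counting options.

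The filter kept 13739 genes averaging 1 TPM or more and left out 12525. Values as log2(TPM + 1) went into limma (3.58.1, R 4.3.3) with the trend option, and p-values were adjusted by Benjamini-Hochberg across the 13739 genes at 0.05. A fold change on this scale understates that of low genes. Reads were recovered from the TPM steps and the deposited mean normalized counts: 100% of values below 50 reads came within 0.05 of a whole number. The titles call the libraries biological replicates, and no batch is given. Samples of the same number were not shown to be paired. Alternatives were other pseudocounts, filters, scalings and limma options, a replicate block and leaving out each library; voom on the recovered reads was added after the data were seen.

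The members and all lists were chosen with earlier results of these data known. Members named with values are the 10 highest, those with an unadjusted p under 0.05 or without overlap, and a listed set; Rab3a, Rab3b, Rab19, Rab26, Rab33a and Rab42 were added after their values were seen, as were the other GEFs, effectors and overlapping genes named. Per list of other genes, the members with the 2 smallest p are named, and of the carriers all but what is not reported here. Overlaps come from GENCODE vM21 by gene name, with no coordinates carried over.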

Additional observations from a re-analysis of the deposited data

How the results depend on the processing

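The count of 0 members and of 0 genes at an adjusted p under 0.05 was the same in every alternative run, and the lowest adjusted p of a named member in any of them was 0.750. The count of members with an unadjusted p under 0.05, 1 as reported, was 2 without the filter on low values (Rab30 and Rab7b; 3.66% of all genes), 0 with a filter at 5 TPM, which removes Rab30 (3.04%), and 2 with library weights (Rab30 and Rab3b; 4.91%). Leaving out each library in turn gave 0 to 3 such members (2.21% to 6.22% of all genes), 4 to 12 members without overlap (3 as reported; 14.6% to 22.8% of all genes, the 12 without control 1 standing beside 22.8%), a median log2 fold change of the members from -0.033 to 0.023, and 0 to 0 genes past the adjusted threshold. The unadjusted limma p fell below 0.05 for Rab3a (-0.52) and Rab3b (-1.42) without control 1, for Rab19 (0.92) without PLX5622 1 and for Rab3b (-1.32) without PLX5622 3.

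Same-numbered libraries deviated together across genes with correlations of 0.196, 0.136 and 0.0873, each library correlating best with its own number, which is no pairing by the design. With a replicate block 2 members had an unadjusted limma p under 0.05, Rab30 and Rab3b, at a background of 5.98%.

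Signs of log2 fold changes near 0 depended on the setting. Rab10 was 0.0060 with median-of-ratios scaling, 0.019 with quantile normalization, 0.033 with library weights and 0.0055 with voom. Rab4b was 0.0060, 0.025 and 0.0016 with median-of-ratios scaling, quantile normalization and voom. Rab7 was 0.0087 with quantile normalization. With library weights Rab13 was -0.032, Rab14 0.0044 and Rab1a 0.0011. Leaving out 1 library changed the sign of 16 of 28 members, none above 0.19 in size as reported: Rab10 -0.053 to 0.064, Rab11a -0.056 to 0.17, Rab12 -0.015 to 0.092, Rab13 -0.071 to 0.11, Rab14 -0.0996 to 0.045, Rab1a -0.13 to 0.046, Rab1b -0.013 to 0.051, Rab20 -0.076 to 0.44, Rab21 -0.054 to 0.097, Rab27a -0.27 to 0.021, Rab4b -0.073 to 0.028, Rab5a -0.12 to 0.058, Rab5b -0.094 to 0.0014, Rab6a -0.23 to 0.033, Rab7 -0.063 to 0.043, Rab8a -0.17 to 0.028. The cause was not tested. Of the members under the filter, Rab17 and Rab7b, whose reads were recovered, gave at most 35 in any library. For the others whose reads could be worked out, the numbers are lower bounds and reached 11. Depth limits what can be said of these members.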
